A study of Homo sapiens with 9 samples.

Results

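The integrated stress response was followed through 8 genes, *ATF3*, *ATF4*, *DDIT3*, *TRIB3*, *CHAC1*, *SESN2*, *DDIT4* and *PPP1R15A*, which were taken by symbol from the 60664 genes of the count tables. The 8 genes were chosen by name with earlier results of these data known, and none was chosen by a threshold on its counts. They were measured by RNA sequencing in MDA-MB-231, an established line of mesenchymal form from a human breast cancer. Each of 3 groups held 3 samples, and every sample was taken on day 6. The first group, SC cells at 0.77 cP, carried a scramble hairpin that targets no gene and was kept in medium of ordinary viscosity. The second group, SC cells at 8 cP, carried the same hairpin in medium thickened with methylcellulose. The third group, shTRPV4 cells at 8 cP, carried a hairpin against *TRPV4*, a calcium channel of the cell membrane, in the thickened medium. Per the methods, both hairpins were expressed stably from a puromycin-selected lentiviral backbone, so every group carried a hairpin and had been under selection, and the knockdown rests on a single hairpin sequence. shTRPV4 cells at 0.77 cP were not analysed here, so whether the knockdown altered the response to viscosity could not be tested.

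In the integrated stress response, kinases that sense different stresses phosphorylate the translation initiation factor eIF2. Most protein synthesis then falls, while the message of *ATF4* is translated more, so that a large part of the control of ATF4 lies in translation and not in its RNA. ATF4 switches on a second tier of transcription factors, among them ATF3 and CHOP (the product of *DDIT3*), and with them genes of amino acid supply, redox balance and feedback on eIF2. *ATF3* also belongs to the immediate early genes, which growth factor, calcium and stress signals induce within minutes without new protein, and *DDIT4* is also a target of the hypoxia-inducible factors (HIF). RNA counts carry no direct reading of eIF2 phosphorylation or of ATF4 protein.

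The promoters of the members were searched for 3 short elements to which factors of this response bind, and the matches are shown because they mark 3 of the transcripts that fell at 8 cP (*ATF3*, *DDIT3* and *PPP1R15A*) and 1 that did not pass the test (*CHAC1*). All 8 members had at least 1 RefSeq promoter window (GRCh38.p14, from 250 bases before to 50 bases after a start site), 13 windows in all. Both strands were searched for TGATGNAA (the core of the amino acid response element bound by ATF4 with C/EBP proteins), TGACGTCA (the cyclic AMP response element, bound by CREB and ATF proteins) and TGACTCA (the AP-1 site, bound by FOS and JUN proteins). The 30 bases around each match follow, with the matched letters in capitals, read 5′ to 3′ on the strand of the gene.
ATF3, chr1:212565205-212565234, plus strand: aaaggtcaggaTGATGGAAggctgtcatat
CHAC1, chr15:40953251-40953280, plus strand: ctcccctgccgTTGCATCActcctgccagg
DDIT3, chr12:57520737-57520766, minus strand: gcgcgcgcgcaTGACTCAcccacctcctcc
PPP1R15A, chr19:48872352-48872381, plus strand: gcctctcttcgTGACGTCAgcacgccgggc
The *ATF3* match to the amino acid response element began at position -191 from the start site of its window. That window lies at the upstream end of the gene, and the match says nothing of any start site farther in. The *CHAC1* match to the same element began at position -209 and lay on the strand opposite to the gene. The AP-1 letters of *DDIT3* began at position -238, and the cyclic AMP letters of *PPP1R15A* at position -58. Of the 35116 RefSeq windows of this length, 3.62% held TGATGNAA, 1.85% held TGACGTCA and 4.95% held TGACTCA. Counted per gene, over any of its windows, the shares were 4.46%, 2.25% and 6.05% of 27305 genes. The windows of *ATF4*, *TRIB3*, *SESN2* and *DDIT4* held none of the 3, which says only that these letters are not in these windows.

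A sample held 64571681 to 103518036 counts in all, and 18264 genes passed the filter on low counts and were tested. Levels are given as CPM, counts scaled to library size with TMM factors, and as RPKM, CPM per kilobase of exon. Differences are log2 fold changes, tested by quasi-likelihood in edgeR and adjusted after Benjamini and Hochberg over every gene tested, and a gene was called at an adjusted p below 0.05. The labels do not say whether the samples of a group came from separate cultures, so the p-values measure the spread between these samples. *TRPV4* had 24 to 64 counts in the 6 SC samples and 7, 1 and 13 counts in the shTRPV4 samples, a log2 fold change of -2.51 at 8 cP (95% interval -3.58 to -1.47; edgeR adjusted p = 0.00219). Of the markers of the line, *VIM*, a filament gene of mesenchymal cells, was high throughout but fell from 1049 CPM in SC cells at 0.77 cP to 931 CPM in SC cells at 8 cP (log2 fold change -0.17, edgeR adjusted p = 0.0095) and 766 CPM in shTRPV4 cells (-0.28 from SC cells at 8 cP, edgeR adjusted p = 0.00019). *CD44*, an adhesion receptor, stood at 774, 842 and 882 CPM, and rose between the first and the third of these groups (0.19, edgeR adjusted p = 0.0020). *VIM* thus fell, as the called members did, while *CD44* rose, and the part of these shifts in the members' changes was not tested. By contrast, *ESR1*, *PGR* and *CDH1* stayed at or below 0.133 CPM in all 9 samples. *ERBB2* had 89.6 to 96.8 CPM and *EPCAM* 16.9 to 19.4 CPM. In bulk RNA, fewer cells that express a gene and less RNA per cell cannot be told apart.

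The viscosity comparison, of the SC groups at 8 and 0.77 cP, asked which stress response transcripts differ after 6 days in viscous medium. Of the 8 members, 4 fell (*ATF3*, *DDIT3*, *DDIT4* and *PPP1R15A*), none rose and 4 were not called (*ATF4*, *TRIB3*, *CHAC1* and *SESN2*). Over all genes tested, 9.69% were called lower and 9.57% were called higher in this comparison. The median log2 fold change of the members was -0.44, beside -0.0065 over all genes. The knockdown comparison, of shTRPV4 with SC cells in the thickened medium, asked which of them differ with the hairpin. Here 3 members fell (*DDIT3*, *SESN2* and *DDIT4*) and none rose, while 11% of all genes were called lower and 9.02% higher. Their median was -0.21, beside 0.00064 over all genes. The combined comparison, of the shTRPV4 group with the SC group at 0.77 cP, spans both changes and shares its samples with the other comparisons, as those share the SC group at 8 cP. Here 6 members fell and none rose, while 22% of all genes were called lower and 20.4% higher, with a median of -0.62 beside -0.011 over all genes. In no comparison was a member called higher by edgeR or DESeq2, or at an unadjusted edgeR p below 0.05. The members were chosen with earlier results of these data known, and their counts were not tested against the shares of all genes.

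**Figure D1:**
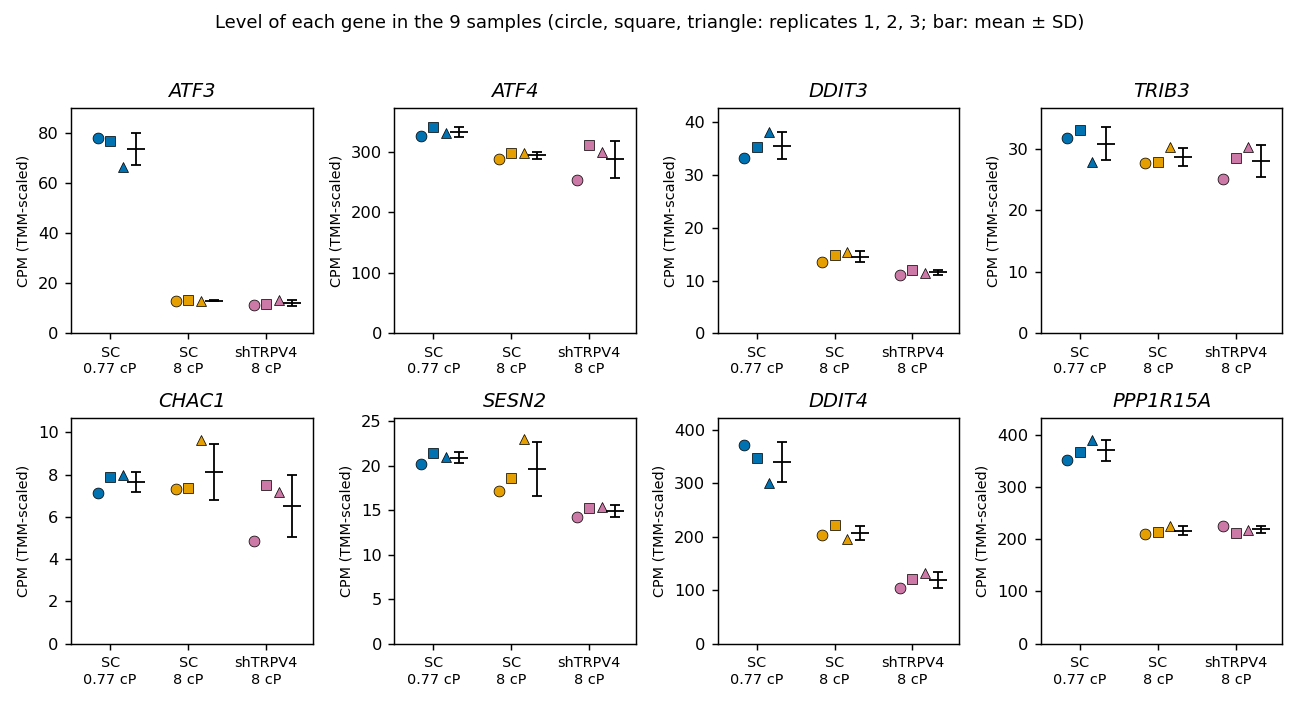
Level of each of the 8 genes in CPM (TMM-scaled) in the 9 samples, with the replicates as a circle, a square and a triangle and the mean ± SD of 3 samples as a bar beside them. *ATF3* drops from 66.5 to 78.0 CPM at 0.77 cP to between 11.5 and 13.4 CPM in the 6 samples at 8 cP, *DDIT4* steps down from group to group, and *TRIB3* and *CHAC1* overlap across the groups.

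*ATF3* encodes a stress-induced transcription factor of the bZIP family that can repress or activate its targets. Its level was 78.0, 76.7 and 66.5 CPM in SC cells at 0.77 cP, 12.9, 13.3 and 13.1 CPM in SC cells at 8 cP, and 11.5, 11.6 and 13.4 CPM in shTRPV4 cells at 8 cP. All 6 samples at 8 cP lay far below all 3 at 0.77 cP, and the 2 hairpin groups at 8 cP overlapped. In SC cells the level fell by 82.3%, from 73.8 ± 6.30 to 13.1 ± 0.200 CPM (SD, n = 3 each). The log2 fold change was -2.50 (SE 0.072, 95% interval -2.65 to -2.34, edgeR adjusted p = 2.4e-12), and *ATF3* ranked 4 of 18264 genes by p. Between the hairpin groups *ATF3* had a log2 fold change of -0.10 (95% interval -0.26 to 0.054, edgeR adjusted p = 0.369), an interval that leaves room for a fall no deeper than 0.26 on this scale. In the combined comparison the log2 fold change was -2.60 (edgeR adjusted p = 1.5e-12). The gene lies on chromosome 1 at 212565334 to 212620777, plus strand (GRCh38, GENCODE 44), with 3998 exon bases, and shares no exon base with another gene.

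*ATF4*, the transcription factor whose translation rises when eIF2 is phosphorylated, ranked first or second of the members per kilobase of exon in every group. Its level was 325, 340.4 and 331 CPM in SC cells at 0.77 cP, 288, 297 and 298 CPM in SC cells at 8 cP, and 253, 311 and 299.8 CPM in shTRPV4 cells. The SC samples at 8 cP all lay below those at 0.77 cP, by little, and shTRPV4 replicate 1 lay below all others. The viscosity log2 fold change was -0.18 (SE 0.061, 95% interval -0.31 to -0.045), with an edgeR adjusted p of 0.0556 that did not pass. It was called under some other settings, with an adjusted p of 0.0450 by DESeq2 and of 0.00742 in edgeR with the 6 SC samples alone. Between the hairpin groups the difference was -0.032 (95% interval -0.16 to 0.098, edgeR adjusted p = 0.769). In the combined comparison *ATF4* was called lower, at -0.21 (edgeR adjusted p = 0.0125). That call was lost without SC-0.77cP replicate 2 (adjusted p = 0.0636), and without shTRPV4-8cP replicate 1 the log2 fold change was -0.12 (adjusted p = 0.0394). *ATF4* lies on chromosome 22 at 39519695 to 39522683, plus strand.

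*DDIT3* encodes CHOP, a C/EBP family factor that links prolonged stress to cell death. Its level was 33.3, 35.4 and 38.2 CPM in SC cells at 0.77 cP, 13.5, 14.8 and 15.4 CPM in SC cells at 8 cP, and 11.1, 12.1 and 11.5 CPM in shTRPV4 cells. The 3 groups did not overlap, with a large step between the viscosities and a small one between the hairpins. With viscosity the level fell by 59.1%, a log2 fold change of -1.29 (SE 0.069, edgeR adjusted p = 4.7e-09). With the knockdown it fell by 20.6% from the SC level at 8 cP, a log2 fold change of -0.33 (SE 0.070, 95% interval -0.48 to -0.18, edgeR adjusted p = 0.00372). *DDIT3* was the single member that shares exon bases with other genes. It lies on chromosome 12 at 57516588 to 57521737, minus strand, and of its 1307 exon bases 355 are shared with *MARS1* and 58 with *MBD6*, both on the other strand, and 105 with a gene without a symbol on the same strand, which had 0 counts in all 9 samples. The strand option of the counting is not given in the sources used here. *MARS1*, a methionine tRNA synthetase gene, had 134 to 150 CPM at 0.77 cP and 159 to 169 CPM in SC cells at 8 cP, where *DDIT3* was lower. In shTRPV4 cells, where *DDIT3* was lower again, *MARS1* had 160.3 to 165.7 CPM, within its range in SC cells at 8 cP.

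*PPP1R15A* (GADD34) encodes the subunit that brings a phosphatase to eIF2 and so closes the response by feedback. Its level was 352, 367 and 391 CPM in SC cells at 0.77 cP, 210.2, 213 and 226 CPM in SC cells at 8 cP, and 226, 212 and 218 CPM in shTRPV4 cells. The 8 cP groups lay on top of one another and well below the group at 0.77 cP. With viscosity the level fell by 41.5%, from 369.8 ± 19.5 to 216 ± 8.19 CPM, a log2 fold change of -0.77 (SE 0.049, 95% interval -0.88 to -0.67, edgeR adjusted p = 3.8e-08). Between the hairpins at 8 cP the difference was 0.017 (95% interval -0.086 to 0.12, edgeR adjusted p = 0.849), the narrowest interval of any member in that comparison. Its relative *PPP1R15B*, which encodes the subunit present without stress, had 55.4 CPM at 0.77 cP and 55.04 CPM at 8 cP in SC cells (log2 fold change -0.0087, edgeR adjusted p = 0.919). *PPP1R15A* lies on chromosome 19 at 48872212 to 48876059, plus strand.

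*TRIB3* encodes a pseudokinase induced by ATF4 and CHOP that in turn restrains ATF4. Its level was 31.7, 33 and 27.9 CPM in SC cells at 0.77 cP, 27.8, 27.9 and 30.3 CPM in SC cells at 8 cP, and 25.1, 28.5 and 30.2 CPM in shTRPV4 cells. The groups overlapped, and the log2 fold change was -0.11 with viscosity (95% interval -0.26 to 0.052, edgeR adjusted p = 0.347). Between the hairpins it was -0.036 (95% interval -0.19 to 0.12, edgeR adjusted p = 0.788). The gene lies on chromosome 20 at 362835 to 397559, plus strand.

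The other tribbles genes had their own patterns. *TRIB1*, a pseudokinase that guides proteins to degradation, stood at 43.97 CPM at 0.77 cP and 10.5 CPM at 8 cP in SC cells, a log2 fold change of -2.06 (edgeR adjusted p = 1.9e-11). *TRIB2*, the third of the family, was at 60.3 and 60.9 CPM in those groups and at 35.9 CPM in shTRPV4 cells. With the knockdown its log2 fold change was -0.76 (edgeR adjusted p = 3.1e-07).

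*CHAC1* encodes an enzyme that degrades glutathione and is among the targets most tied to ATF4, ATF3 and CHOP. It was the least counted member, with 444 to 875 reads per sample. Its level was 7.13, 7.87 and 7.97 CPM in SC cells at 0.77 cP, 7.34, 7.38 and 9.64 CPM in SC cells at 8 cP, and 4.85, 7.53 and 7.16 CPM in shTRPV4 cells. SC-8cP replicate 3 was the highest sample and shTRPV4-8cP replicate 1 the lowest, and the groups overlapped. The log2 fold change was 0.084 with viscosity (SE 0.14, 95% interval -0.21 to 0.38, edgeR adjusted p = 0.716), which did not pass. With the knockdown it was -0.32 (95% interval -0.62 to -0.022, edgeR adjusted p = 0.127), and leaving out either of those 2 samples moved it to -0.18 and to -0.15. The gene lies on chromosome 15 at 40952962 to 40956512, plus strand. Its relative *CHAC2* stood at 11.5 CPM at 0.77 cP and 14.1 CPM at 8 cP in SC cells, a log2 fold change of 0.29 (edgeR adjusted p = 0.0371), with groups that overlapped.

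*SESN2* encodes sestrin 2, a leucine sensor that restrains the growth kinase complex mTORC1. Its level was 20.2, 21.4 and 21.0 CPM in SC cells at 0.77 cP, 17.1, 18.6 and 23.0 CPM in SC cells at 8 cP, and 14.2, 15.2 and 15.3 CPM in shTRPV4 cells. The SC samples at 8 cP spread to both sides of those at 0.77 cP, while the shTRPV4 samples lay below every SC sample. The viscosity log2 fold change was -0.091 (95% interval -0.28 to 0.094, edgeR adjusted p = 0.503). With the knockdown the level fell by 23.9%, a log2 fold change of -0.39 (SE 0.088, edgeR adjusted p = 0.00511). Without SC-8cP replicate 3, the highest sample, that value was -0.26 (adjusted p = 0.0193). At 8 cP *SESN3*, another sestrin gene, stood at 6.73 CPM with the scramble and 2.27 CPM with the *TRPV4* hairpin, a log2 fold change of -1.56 (edgeR adjusted p = 9.9e-07). *SESN1* stood at 6.39 and 6.85 CPM (edgeR adjusted p = 0.455). *SESN2* lies on chromosome 1 at 28259518 to 28282491, plus strand.

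*DDIT4* (REDD1) encodes an inhibitor of mTORC1 that is induced by ATF4, hypoxia and glucocorticoids. Its level was 373, 348 and 300.0 CPM in SC cells at 0.77 cP, 204, 222 and 197 CPM in SC cells at 8 cP, and 103.8, 121 and 133 CPM in shTRPV4 cells. The 3 groups did not overlap and stepped down both with viscosity and with the knockdown. With viscosity the level fell by 39.0%, a log2 fold change of -0.71 (SE 0.084, 95% interval -0.89 to -0.53, edgeR adjusted p = 6.4e-05). With the knockdown it fell by 42.5%, a log2 fold change of -0.80 (SE 0.085, 95% interval -0.98 to -0.62, edgeR adjusted p = 1.1e-05), the largest difference of any member between the hairpins. In the combined comparison the log2 fold change was -1.51 (edgeR adjusted p = 4.5e-09). Its relative *DDIT4L* was low, at 1.45 CPM in SC cells and 0.845 CPM in shTRPV4 cells at 8 cP (log2 fold change -0.77, edgeR adjusted p = 0.0170). *DDIT4* is a gene of 1 merged exon block on chromosome 10 at 72273919 to 72276036, plus strand.

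**Figure D2:**
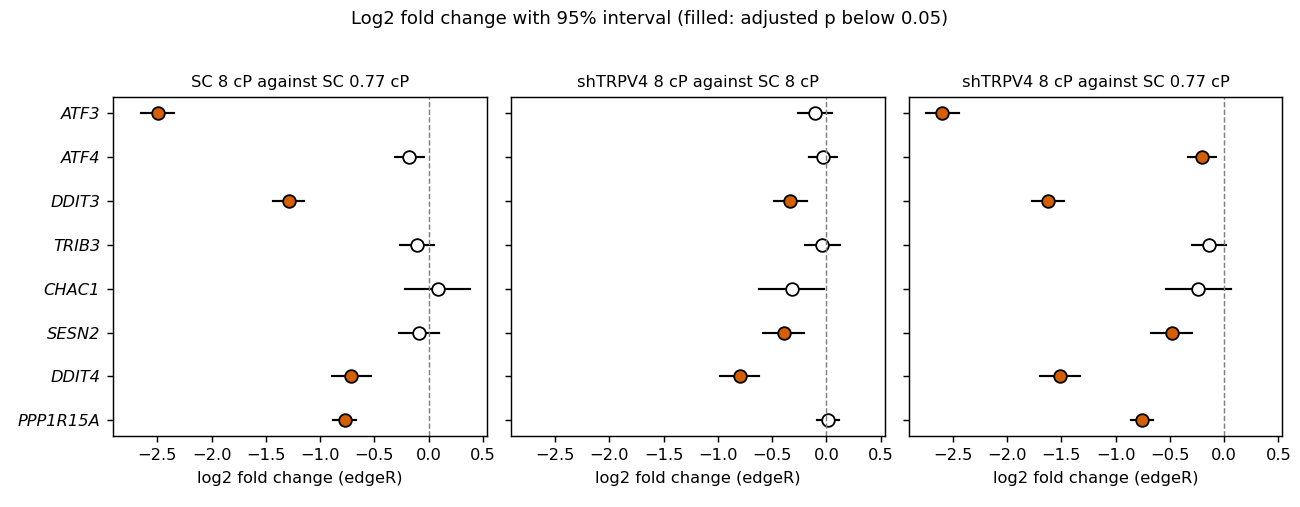
Log2 fold change of each gene in the 3 comparisons with its 95% interval from edgeR, filled where the adjusted p was below 0.05. *ATF3* (-2.50) and *DDIT3* (-1.29) lie farthest to the left with viscosity, *DDIT4* (-0.80) with the knockdown, and *TRIB3* and *CHAC1* are unfilled in all 3 panels.

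Per kilobase of exon, *DDIT4* was the most abundant member in SC cells at 0.77 cP, with 161 ± 17.5 RPKM, followed by *ATF4* at 127 ± 2.96 and *PPP1R15A* at 108 ± 5.67 RPKM. *DDIT3* (27.2 RPKM), *ATF3* (18.5), *TRIB3* (9.38), *SESN2* (6.03) and *CHAC1* (3.73) followed in that order, and no neighbours in the order overlapped in their samples. In SC cells at 8 cP, *ATF4* came first at 113 RPKM and *DDIT4* second at 98.0 RPKM. *ATF3*, at 3.27 ± 0.050 RPKM, was then last of the 8, below *CHAC1* at 3.96 ± 0.641, and again no neighbours overlapped. That order rests on the length of all annotated exons merged, 3998 bases for *ATF3* and 2051 for *CHAC1*. Which transcripts were expressed was not determined. In CPM, without the length, *ATF3* stood above *CHAC1* in SC cells at 8 cP, at 13.1 against 8.12. In shTRPV4 cells *ATF4* had 110.1 ± 11.7 RPKM. The level of *PPP1R15A* (63.7 RPKM) overlapped that of *DDIT4* (56.3), *DDIT3* (8.86) overlapped *TRIB3* (8.50), and *CHAC1* (3.17) overlapped *ATF3* (3.04).

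**Figure D3:**
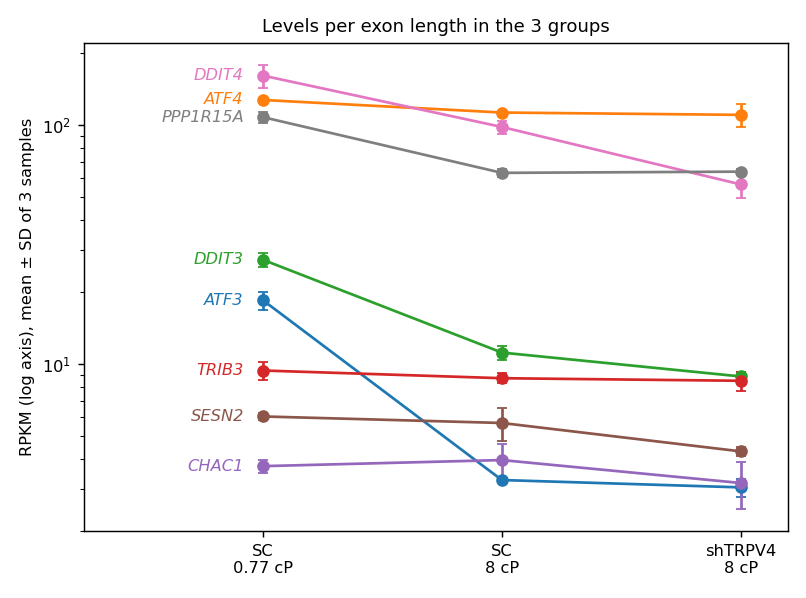
Mean level of each gene per kilobase of exon (RPKM, log axis) in the 3 groups, with the SD of 3 samples as error bars and lines that only join the means of 1 gene. *ATF3* goes from the fifth place (18.5 RPKM) at 0.77 cP to the last place (3.27 and 3.04 RPKM) in both groups at 8 cP, and *DDIT4* falls from 161 to 56.3 RPKM. The places rest on the merged length of all annotated exons of each gene.

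Other genes of the pathway and its neighbours were followed through 7 lists, some of which share genes. Of all genes tested, 9.57% were called higher and 9.69% lower with viscosity. The shares were 9.02% and 11% with the knockdown, and 20.4% and 22% in the combined comparison. No list was tested against these shares. The genes upstream of ATF4 lay between -0.26 and 0.21 on the log2 scale in the viscosity and knockdown comparisons. A list of 21 genes covered eIF2, its kinases, its phosphatase and its exchange factor eIF2B. It also held *EIF2A*, *GCN1*, *DNAJC3*, *DELE1* and *OMA1*. Of the 21, 8 rose and none fell with viscosity, with a median of 0.039 beside -0.0065 over all genes. *EIF2B3*, a subunit of the exchange factor, rose by 0.21 (edgeR adjusted p = 0.0112), and *EIF2S1* and *EIF2S3*, subunits of eIF2 itself, by 0.17 and 0.18. Of the kinase genes, *EIF2AK2* and *EIF2AK4* each rose by 0.20 (edgeR adjusted p = 0.0211 and 0.0297). *EIF2AK3*, which encodes the endoplasmic reticulum kinase PERK, stood at 15.8 CPM at 0.77 cP and 14.9 CPM at 8 cP in SC cells (log2 fold change -0.081, edgeR adjusted p = 0.348). *EIF2AK1* was not called with viscosity either (0.039, edgeR adjusted p = 0.546). With the knockdown, *EIF2AK1*, the kinase activated by haem deficiency, and *DELE1*, which relays mitochondrial stress to it, rose by 0.18 and 0.16 on the log2 scale. *PPP1CB*, a catalytic subunit of the phosphatase, fell by 0.26 and *EIF2B2* by 0.15. The median with the knockdown was 0.038. Of the 21, 12 rose and 2 fell in the combined comparison, with *EIF2S3* at 0.28, *PPP1CC*, another catalytic subunit of the phosphatase, at 0.26, *EIF2S1* at 0.25, and *PPP1CB* and *EIF2B2* at -0.26 and -0.15.

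Genes of amino acid supply and other targets of ATF4 did not move as 1 group. Of 31 listed, 29 were tested, and with viscosity 6 rose and 3 fell, with a median of -0.020 beside -0.0065 over all genes. Those that rose were mostly amino acid carriers. *SLC7A5*, the light chain of a leucine carrier, went from 271 to 408 CPM (log2 fold change 0.59, edgeR adjusted p = 0.000787). *SLC7A11*, the cystine carrier, rose by 0.52, *SLC7A1* by 0.37, *SLC3A2*, the heavy chain shared by the products of *SLC7A5* and *SLC7A11*, by 0.27, and the biosynthetic genes *PSAT1* and *ALDH18A1* by 0.30 and 0.17. Those that fell were *SLC38A2*, a carrier of small neutral amino acids (-0.66, from 359 to 227 CPM), *CEBPB*, a bZIP factor (-0.86), and *GDF15*, a secreted stress hormone (-0.97, from 12.3 to 6.27 CPM). *ASNS*, the asparagine synthetase much used as a readout of ATF4, was low at 1.30 and 1.06 CPM, with a log2 fold change of -0.29 that did not pass (edgeR adjusted p = 0.280).

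With the knockdown 3 of the 29 rose and 4 fell, near the 9.02% and 11% of all genes, with a median of -0.085. *SLC7A5* rose again, to 605 CPM (log2 fold change 0.57, edgeR adjusted p = 0.000491), as did *SLC3A2* (0.28). *HMOX1*, the haem oxygenase, which was not called with viscosity, rose by 0.28. *VLDLR* (-0.34), *SLC7A11* (-0.40), *SLC1A5* (-0.19) and *PHGDH* (-0.39) fell. *SLC7A11*, the cystine carrier, thus rose with viscosity and fell with the knockdown, each by its own test, with the SC group at 8 cP in both, and in shTRPV4 cells it stood at 40.3 CPM, against 37.0 CPM in SC cells at 0.77 cP (log2 fold change 0.12, edgeR adjusted p = 0.299). In the combined comparison, 7 of the 29 rose and 9 fell, beside 20.4% and 22% of all genes.

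The other arms of the endoplasmic reticulum stress response were read through 20 genes, targets of ATF6 and XBP1 and the sensor genes *ATF6* and *ERN1*. With viscosity 5 fell and none rose, beside 9.69% and 9.57% of all genes, with a median of -0.033. Those that fell were *HERPUD1* (-0.40), *DNAJB9* (-0.38), *XBP1* itself (-0.33), *HSPA5*, which encodes the chaperone BiP (-0.22, from 1404 to 1205 CPM), and *CALR* (-0.15). With the knockdown 1 of the 20 fell and 2 rose, beside 11% and 9.02% of all genes, with a median of 0.016. *PDIA6*, a disulfide isomerase, fell from 242 to 139 CPM (log2 fold change -0.80, edgeR adjusted p = 4.9e-09), while *SDF2L1* and *SEL1L* rose by 0.19 and 0.12. In the combined comparison 6 of these 20 genes fell and 4 rose, near the 22% and 20.4% of all genes. Those that rose were *SDF2L1* (0.23), *HYOU1* (0.15), *DNAJC3* (0.14) and *SEL1L* (0.13).

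Of 24 bZIP genes whose proteins can pair with or compete with ATF3, ATF4 and CHOP, 11 fell and 2 rose with viscosity, with a median of -0.18. *FOSB* fell from 21.9 to 1.00 CPM (log2 fold change -4.45), *FOS* from 57.0 to 13.4 CPM (-2.09) and *JUNB* from 108 to 42.1 CPM (-1.36). *CEBPG* and *FOSL1* rose by 0.23 and 0.18. With the knockdown 4 fell, *JUN* (-0.46), *CEBPD* (-0.48), *ATF1* (-0.19) and *FOSL2* (-0.14), and *FOSL1* rose by 0.54, with a median of -0.099. Of the 24, 13 fell and 3 rose in the combined comparison, those that rose being *FOSL1* (0.72), *CEBPG* (0.26) and *ATF5* (0.23). Of the 9 relatives of the members (tribbles, sestrin, CHAC, DDIT4, PPP1R15, ATF5 and JDP2 genes), 1 rose and 1 fell with viscosity (median 0.067), none rose and 3 fell with the knockdown (median 0.051), and 2 rose (*CHAC2*, 0.44, and *ATF5*) and 3 fell (*TRIB1*, *SESN3* and *TRIB2*) in the combined comparison. Over all genes, 9.57% rose and 9.69% fell with viscosity, 9.02% and 11% with the knockdown, and 20.4% and 22% in the combined comparison.

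*ATF3* fell alongside the immediate early genes. Of 25 of them, a list written with results of these samples known and without *ATF3* in it, 22 fell and 1 rose with viscosity, with a median log2 fold change of -1.18. Their summed level lay between 4294 and 4675 CPM in SC cells at 0.77 cP, between 2460 and 2552 CPM in SC cells at 8 cP, and between 2278 and 2507 CPM in shTRPV4 cells. *NR4A1*, an orphan nuclear receptor, fell by 5.13 on the log2 scale, *FOSB* fell by 4.45 and *ZFP36*, which destabilizes messages, fell by 1.75. The gene that rose was *FOSL1* (0.18). With the knockdown 9 of the 25 fell and 2 rose, with a median of -0.20. *FOSL1* rose by 0.54, and *NR4A1*, which fell most with viscosity, rose from 0.997 to 1.57 CPM (log2 fold change 0.66, edgeR adjusted p = 0.0038), still far below its 35.1 CPM at 0.77 cP. Among those that fell, *KLF2*, a factor induced by flow, had a log2 fold change of -0.44 and *NR4A2*, a relative of *NR4A1*, of -1.34. In the combined comparison 23 fell and 1, *FOSL1*, rose. Over all genes, 9.69% fell and 9.57% rose with viscosity, 11% and 9.02% with the knockdown, and 22% and 20.4% in the combined comparison. What part the signals that drive this list had in the fall of *ATF3* was not tested.

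*DDIT4* fell alongside the HIF targets. The list of 15 was written with results of these samples known and does not include *DDIT4*. With viscosity 8 fell and none rose (median -0.21), beside 9.69% of all genes called lower. With the knockdown 13 fell and none rose (median -0.35), beside 11% of all genes called lower. In the combined comparison 14 fell, beside 22%. The summed level of the 15 was 3776 to 3999 CPM in SC cells at 0.77 cP, 3158 to 3536 CPM in SC cells at 8 cP and 2347 to 2676 CPM in shTRPV4 cells. With the knockdown *CA9*, a carbonic anhydrase, went from 9.94 to 4.0 CPM (log2 fold change -1.31), *P4HA1*, a collagen prolyl hydroxylase subunit, fell by 0.60 and *ADM*, a peptide hormone gene, by 0.46. With viscosity *NDRG1* fell by 0.48, *EGLN3*, a HIF hydroxylase, by 0.37 and *ADM* by 0.25. What part HIF had in the fall of *DDIT4* was not tested.

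**Figure D4:**
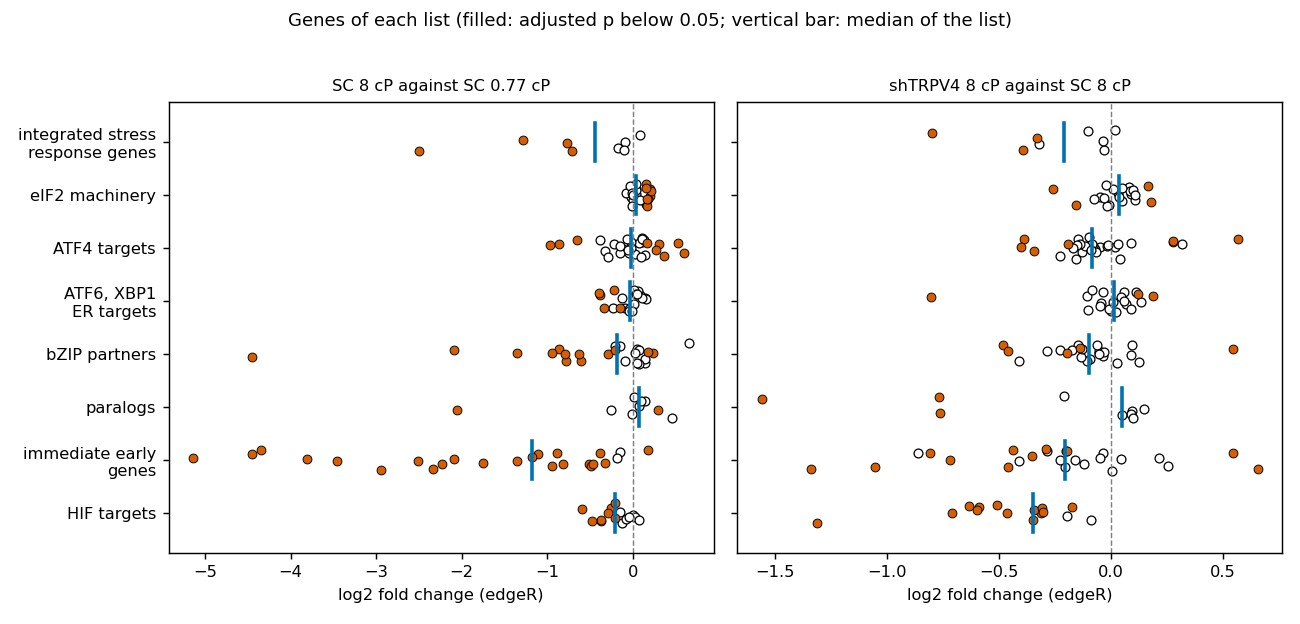
Log2 fold change of every tested gene of the 8 lists with viscosity (left) and with the knockdown at 8 cP (right), filled where the edgeR adjusted p was below 0.05, with the median of each list as a vertical bar. The immediate early genes lie farthest to the left with viscosity (median -1.18), the HIF targets with the knockdown (median -0.35), and the genes of eIF2 and its partners lie close to 0 in both.

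Outside the members, 13100 tested genes had a mean level of 1 CPM or more, and the 5 whose profile over the 9 samples was most like that of *ATF3* were *HES1*, *DUSP1*, *TRIB1*, *FOS* and *CXCL8*. Likeness was the root mean square difference of log2 CPM from *ATF3* after centring each gene on its own mean, and it was 0.113 for *HES1*, 0.139 for *DUSP1*, 0.235 for *TRIB1*, 0.256 for *FOS* and 0.259 for *CXCL8*. *HES1*, a repressor of the Notch pathway, stood at 265 CPM in SC cells at 0.77 cP, 49.0 CPM in SC cells at 8 cP and 41.2 CPM in shTRPV4 cells. *DUSP1*, a phosphatase of MAP kinases, stood at 249, 53.0 and 46.0 CPM. Of the 7 other members, *DDIT3* was nearest to *ATF3* at 0.539, then *DDIT4* at 0.737 and *PPP1R15A* at 0.849. The measure was not scaled, so it takes in the size of a change as well as its shape. *PPP1R15A*, which like *ATF3* was not called between the hairpins, thus lay farther off than *DDIT4*, which was called there. *SESN2*, *ATF4*, *TRIB3* and *CHAC1* lay between 1.076 and 1.18. The 5 genes above were picked as the closest of 13100, so that the members lie farther than these is no finding. How many of the 13100 lay nearer than a member was not counted.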

How the data were processed

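RNA was sequenced as stranded poly(A) libraries with 100-bp read pairs. As described by the authors and in the submitters' processing notes, reads were mapped to GRCh38.p13 with HISAT2 2.2.1, handled with SAMtools 1.1.3 and counted on the exons of each Ensembl gene with HTSeq 0.13.5. The authors deposited these counts per gene for each of the 9 samples, without normalization, and compared groups with DESeq2. Groups and replicate numbers came from the sample titles.

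Here, Ensembl identifiers were matched to symbols with a table of gene names (42028 of 60664) and to exon lengths from GENCODE 44 (60463). In R 4.3.3, counts were scaled with TMM in edgeR 4.0.16 (limma 3.58.1), low genes were removed with filterByExpr, and quasi-likelihood fits used all 9 samples and a mean for each group. The common biological coefficient of variation was 0.0633. Benjamini-Hochberg adjustment covered 18264 genes, with a threshold of 0.05. The scripts were tested on simulated data. The 8 genes and the lists were chosen with earlier results of these data known. The named genes are the members, *TRPV4*, the markers and the 5 genes most like *ATF3*. From each list and comparison of the main fit they include the 3 genes with the smallest p. They also include every gene that a count of called genes of 5 or fewer in that fit refers to. *EIF2AK3* and *ASNS*, the further relatives of the members, and the list genes named beyond these were chosen after their values were seen. For the likeness, 0.01 CPM was added before log2. Alternatives were DESeq2 1.42.0, upper quartile scaling, library totals alone, no filter, at least 10 counts in every sample, fits to the compared groups alone (6 samples), a block for the replicate number, a minimum log2 fold change of 1 in either direction, and leaving out each sample.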

Additional observations from a re-analysis of the deposited data

How the results depend on the processing

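Of 384 log2 fold changes of the members under the alternatives, 369 kept their direction and side of the threshold, 1 lost its call, 7 gained one and 7 changed sign. The calls of *ATF3*, *DDIT3*, *DDIT4*, *PPP1R15A* and *SESN2* were kept under every alternative on scaling, filter, samples and left-out samples. When a log2 fold change of 1 or more in either direction was also asked for, the members called were 2 with viscosity, 0 with the knockdown (where none reached it, *DDIT4* coming nearest at -0.80) and 3 in the combined comparison. *ATF4* with viscosity was called by DESeq2 (adjusted p = 0.0450), with no filter (0.00702), with 6 samples (0.00742) and without shTRPV4-8cP replicate 1 (0.00488), each giving 5 members called. *CHAC1* with the knockdown was called with no filter (0.00924), and *TRIB3* in the combined comparison without SC-0.77cP replicate 3 (0.0410). Uncalled values changed sign when a sample was left out. With viscosity *SESN2* ranged from -0.21 to 0.0058 (positive without SC-8cP replicate 1) and *CHAC1* from -0.048 to 0.16 (negative without SC-8cP replicate 3). With the knockdown *ATF4* ranged from -0.091 to 0.052 (positive without shTRPV4-8cP replicate 1) and *TRIB3* from -0.096 to 0.035 (positive without that sample, and 0.0063 without SC-8cP replicate 3). *PPP1R15A* ranged from -0.0065 to 0.048 (-0.0065 without shTRPV4-8cP replicate 1, -0.0035 without SC-8cP replicate 1). The cause was not tested. Of 168 list counts, 143 stayed within 1.5 times the main count. Of the other 25, 21 came from asking for a log2 fold change of 1: with viscosity no eIF2, ATF4 target, ATF6 and XBP1 or HIF gene reached it, while 14 immediate early genes, 3 bZIP genes and 1 relative of the members did, and with the knockdown 2 immediate early genes, 1 HIF target and 1 relative did. Without a filter, 17 immediate early genes (2 higher, 15 lower) were called with the knockdown and 8 genes of the ATF6 and XBP1 list (2 higher, 6 lower) with viscosity. Samples with the same replicate number did not deviate together (correlations -0.055 to 0.090 over 9 pairs, against -0.11 to 0.11 over 18 pairs with different numbers). With the replicate block the members called were 5, 3 and 6, *ATF4* with viscosity being added (adjusted p = 0.0343). The shares of all genes called under the alternatives were not counted, so the member and list counts there have no background beside them. Depth limits *TRPV4* (at most 64 counts) more than any member (at least 444 counts).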

Other observations

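Within the groups, single samples lay at the edge for most of the 8 genes. shTRPV4-8cP replicate 1 was the lowest of its group for 7 of the 8 members, for 20 of the 29 tested targets of ATF4 and for 13 of the 15 HIF targets, against 37.23% of all genes tested. The same sample was the highest of its group for 39.74% of all genes. Of the 20 genes of the ATF6 and XBP1 list, it was the highest for 12 and the lowest for 6. SC-8cP replicate 1 was the lowest of its group for 7 of the 8 members and for 10 of the 29 targets of ATF4, against 32.68% of all genes. SC-8cP replicate 3 was the highest of its group for 6 of the 8 members and the lowest for 12 of the 15 HIF targets, against 35.15% and 36.45% of all genes. The members of a list are not independent of one another, and these samples were singled out after their values were seen.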
